A study of Rattus norvegicus with 6 samples.

Results

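Lysosomes are acidic vesicles in which soluble hydrolases take apart glycoproteins, glycosaminoglycans, glycolipids, lipids and peptides. A proton pump in the limiting membrane keeps the lumen acidic, and heavily glycosylated membrane proteins, channels and transporters line that membrane. Microglia, the phagocytes of the brain, are rich in lysosomes, and inherited loss of many of these enzymes causes storage disorders with neurodegeneration. The genes described here are 32 genes of lysosomal hydrolases, their cofactors and lysosomal membrane proteins, taken as a list by name. Probes were matched to it by gene name or accession, and 30 of the 32 had a probe, out of 17848 named genes on the array. Idua and Naglu had no matched probe and were not analysed here.

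Hippocampal RNA of male Wistar rats (the strain label spells it Wister) was hybridised to 6 Agilent arrays of 1 colour. One held the control, and 1 each held RNA taken at day 21, 35, 45, 55 or 70 of BCCAo, the permanent ligation of both common carotid arteries. Per the labels the control rats were 12 weeks old, and those of the 5 time points 13, 14, 15, 16 and 17 weeks, in order. These ages advance by fewer weeks than the days after occlusion, so it is unclear at which moment they were taken, and labelled age and time cannot be told apart. RNA was pooled before labelling, and the sources used here do not say how many animals a pool held. The ligation text stands in every record, the control's included, and whether the controls had a sham operation is not given. With 1 array per group there is no replicate, so differences carry no error and no test was made.

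The arrays came from 2 slides, the first with the control, day 21 and day 35, the second with days 45, 55 and 70, so for the later days slide and time cannot be told apart. Between 74.5 and 80.2% of spots were well above background. Probes printed 10 times had a median SD between spots of 0.051 to 0.073 log2 units, which gives a technical SD of 0.078 for a difference of 2 arrays. All 7 marker genes of hippocampal subfields were well above background on all 6 arrays. Levels are log2 signals relative to the array's own 75th percentile, so that 0 is the level of a bright probe, and they are not compared between genes. Differences are log2 levels of a day minus the control.

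Of the 30 genes with a probe, 27 were well above background on all 6 arrays and none was saturated. Galns was well above background on the control, day 21 and day 35 arrays, and Sgsh on none. The control spot of Galc was marked as an outlier by the scanner software and left out, which leaves this gene without a control value. Thus 28 genes could be compared with the control.

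At day 21 the lysosomal genes were on balance higher than in the control pool, and the cholesterol-binding protein gene Npc2 and the progranulin gene Grn stood farthest above it, 3.53-fold and 2.99-fold. These were the 2 genes of the 28 at least 2-fold higher, beside 3.58% of all 14153 genes compared. At 1.5-fold, 10 of the 28 were higher, beside 7.76% of all genes, and 0 were lower, beside 5.43%, so that 0 were 2-fold lower, beside 1.89%. The median difference was 0.38 for the 28 genes and -0.07 for all genes, and 19 of the 28 lay above the control against 5609 of the 14153. In pooled tissue RNA more cells of a type and more RNA per cell cannot be told apart.

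**Figure D1:**
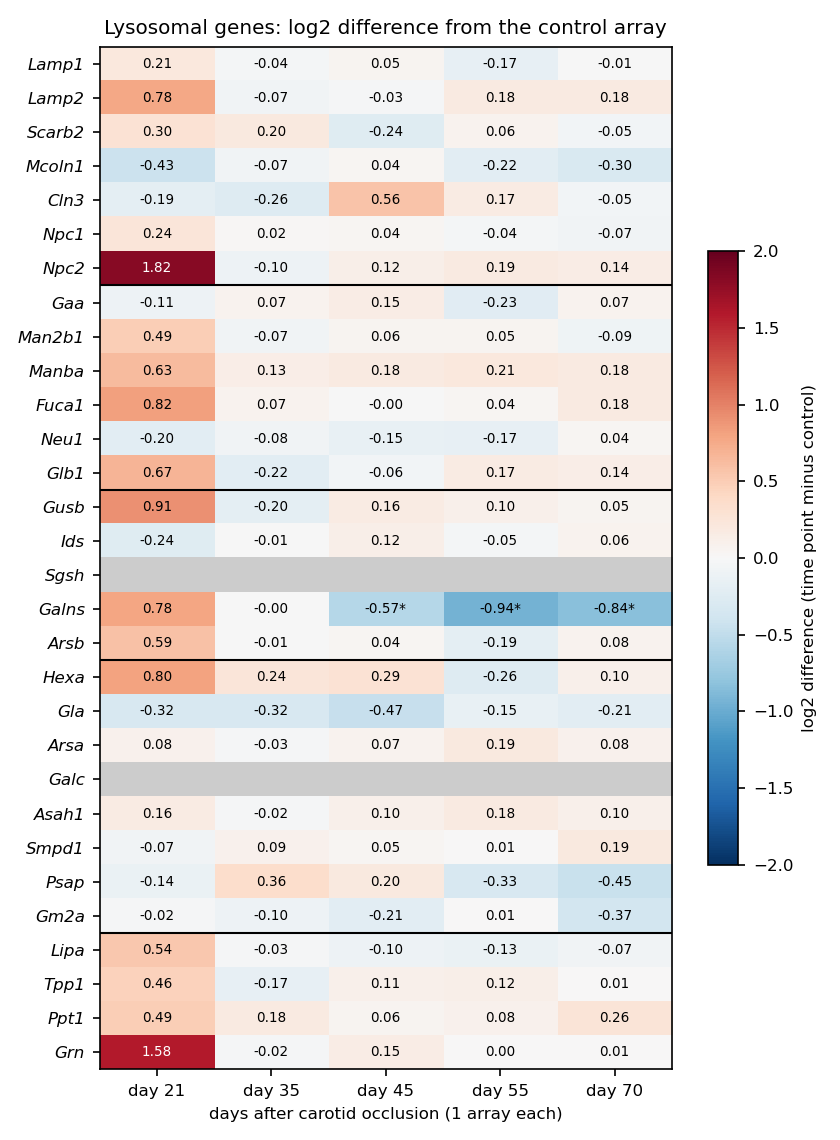
Log2 difference of each time point from the control array, 1 array each, for the 30 lysosomal genes with a probe, ordered by role with lines between the roles. Colour and number give the difference, an asterisk marks a bound against a signal not well above background, and grey cells have no value. The day 21 column holds the highest values, 1.82 for Npc2 and 1.58 for Grn, and no value of the later columns is past 1.5-fold except the Galns bounds at day 55 and day 70.

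Among membrane proteins and the proteins that export cholesterol, Npc2 and Lamp2 were past 1.5-fold at day 21, and the 7 genes had a median of 0.24. Npc2 encodes the soluble protein that binds cholesterol in the lumen and hands it to NPC1. Its level was -0.06 in the control, 1.76 at day 21, -0.16 at day 35, 0.06 at day 45, 0.13 at day 55 and 0.08 at day 70. The day 21 array thus stood alone, 1.63 log2 units above the next highest, while the other 5 lay within 0.29. In intensity units the signal was 1258 in the control and 4202 at day 21. The probe of 60 bases is placed at chr6:108794590-108798310 on the minus strand of build rn4, a span of 3721 bases, so it is split there, as across an intron.

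Lamp2, a major glycoprotein of the lysosomal membrane and a receptor of chaperone-mediated autophagy, had levels of -1.22 in the control, -0.44 at day 21, -1.30 at day 35, -1.25 at day 45, -1.05 at day 55 and -1.04 at day 70. It was 1.72-fold higher at day 21, the highest array by 0.60. Its close relative Lamp1 was at 1.80 in the control and 2.02 at day 21, a difference of 0.21. The cholesterol transporter gene Npc1 differed by 0.24 at the probe used and by 0.27 at its other probe. Against Npc2, its partner in cholesterol export, this was a small difference, although the Npc1 level varied by as little as 0.10 over the other 5 arrays.

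Of the other membrane genes, Scarb2 was above the control at day 21, and Mcoln1 and Cln3 were below it. Scarb2, which encodes the transport receptor of glucocerebrosidase, differed by 0.30. Mcoln1, the lysosomal calcium channel TRPML1, was the lowest of the 28 genes at -0.43, with levels of 1.10 in the control, 0.67 at day 21, 1.03 at day 35, 1.14 at day 45, 0.89 at day 55 and 0.80 at day 70. Its day 21 level was below the lowest of the other arrays. Cln3, a membrane protein lost in juvenile Batten disease, differed by -0.19 and was highest at day 45 (-3.33) against -3.90 in the control, a range of 0.82 over the arrays other than day 21.

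**Figure D2:**
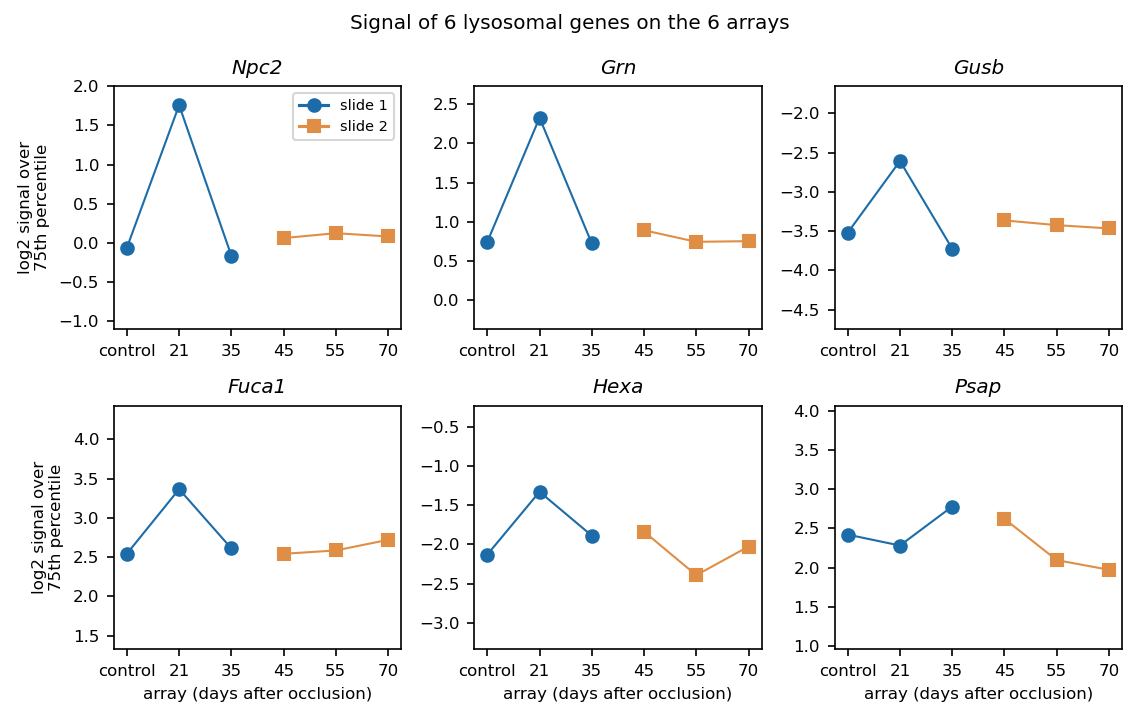
Log2 signal over the array's 75th percentile (y axis, all panels span the same number of units) on the 6 arrays (x axis) for Npc2, Grn, Gusb, Fuca1, Hexa and Psap; points are single arrays, and circles and squares mark the slides. In the first 5 panels day 21 is the highest array, from 3.37 for Fuca1 to -2.61 for Gusb. Psap is instead highest at day 35 (2.78) and lowest at day 70 (1.97).

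The glycosidases of glycogen and glycoproteins had a median of 0.56 at day 21. Of the 6, 3 were at least 1.5-fold higher, beside 7.76% of all genes. Fuca1, the alpha-L-fucosidase that removes fucose from glycoproteins, had levels of 2.54 in the control, 3.37 at day 21, 2.61 at day 35, 2.54 at day 45, 2.59 at day 55 and 2.72 at day 70. The other 5 arrays lay within 0.18 of one another and day 21 lay 0.65 above them, a 1.77-fold difference from the control. Manba, the lysosomal beta-mannosidase, was at -0.79 in the control and -0.16 at day 21, and between -0.66 and -0.58 on the later arrays. It was 1.55-fold higher at day 21 and stayed 0.13 to 0.21 above the control afterwards.

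Glb1, the beta-galactosidase whose activity is used to stain senescent cells, was at -0.86 in the control and -0.18 at day 21, a 1.60-fold difference. Its levels on the other arrays were -1.07 at day 35, -0.92 at day 45, -0.69 at day 55 and -0.72 at day 70. The other Glb1 probe, which is dimmer, differed by 0.07 at day 21. That probe is placed at chr8:118848501-118851881 in rn4, upstream of the probe used at chr8:118863643-118863702. Over 1985 genes with 2 probes the median gap between probes was 0.16 at day 21 and the 90th percentile was 0.54, so the gap of 0.60 for Glb1 lay beyond it.

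Man2b1, the lysosomal alpha-mannosidase, was at 1.59 in the control and 2.07 at day 21, a difference of 0.49, and no higher than 1.64 on the later arrays. Gaa, the acid alpha-glucosidase that degrades glycogen, differed by -0.11, and the sialidase gene Neu1 by -0.20. Both were within 0.23 of the control at every time point, so the 6 glycosidases did not share a direction at day 21.

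Of the 5 glycosaminoglycan enzymes with a probe, 4 could be compared with the control, with a median of 0.68 at day 21. Of the 4, 3 were at least 1.5-fold higher, beside 7.76% of all genes. Gusb, the beta-glucuronidase, was at -3.52 in the control, -2.61 at day 21, -3.72 at day 35, -3.36 at day 45, -3.42 at day 55 and -3.47 at day 70. This was a 1.88-fold difference at day 21, and its other probe differed by 0.74 against 0.91. Galns, which removes sulfate from keratan sulfate and chondroitin sulfate, was dim, at -5.62 in the control, -4.83 at day 21 and -5.62 at day 35, a 1.72-fold difference at day 21. With the normexp background correction the Galns difference was 0.39. On the arrays of the later slide it was not well above background. In the main processing its bounds lay below the control by 1.49-fold at day 45, 1.92-fold at day 55 and 1.79-fold at day 70. Under several other ways of processing Galns was not counted as 1.5-fold lower at days 55 and 70.

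Arsb, the sulfatase of dermatan sulfate and chondroitin sulfate, was at -0.40 in the control and 0.19 at day 21, a difference of 0.59, just past 1.5-fold, and between -0.60 and -0.32 on the later arrays. Ids, the iduronate sulfatase of dermatan sulfate and heparan sulfate, was on the other side of the control. It was at 2.86 in the control and 2.62 at day 21, and on the remaining arrays between 2.81 and 2.98, so day 21 was the lowest array. Sgsh, the sulfamidase of heparan sulfate, was not well above background, with signals of 4.48 to 14.8 intensity units.

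The sphingolipid enzymes and their activator proteins did not share the difference, with a median of -0.02 over the 7 genes compared. Beside 7.76% of all genes, 1 of the 7 was at least 1.5-fold higher. That gene was Hexa, the alpha subunit of the hexosaminidase that degrades ganglioside GM2. Its levels were -2.13 in the control, -1.33 at day 21, -1.89 at day 35, -1.84 at day 45, -2.39 at day 55 and -2.03 at day 70, a 1.74-fold difference at day 21. By contrast Gm2a, the activator protein that presents GM2 to the same enzyme, differed by -0.02.

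For the remaining sphingolipid genes the day 21 differences ran from -0.32 to 0.16. They were 0.16 for the ceramidase gene Asah1, 0.08 for the arylsulfatase gene Arsa (-0.24 at its other probe), -0.07 for the sphingomyelinase gene Smpd1 and -0.32 for the alpha-galactosidase gene Gla. Psap, the precursor of the saposins that assist several of these enzymes, was at 2.42 in the control, 2.28 at day 21, 2.78 at day 35, 2.62 at day 45, 2.10 at day 55 and 1.97 at day 70. Its range over the arrays other than day 21 was 0.81, beside a median of 0.26 for the 27 lysosomal genes well above background throughout and 0.29 for all genes.

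Galc, the enzyme that degrades galactosylceramide of myelin, had levels of -4.71 at day 21, -5.54 at day 35, -5.59 at day 45, -5.12 at day 55 and -5.21 at day 70. Day 21 was the highest of these 5 arrays. With the marked control spot kept, the control level would be 0.32 and the differences would run from -5.91 to -5.04, from that single spot.

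The lipase, peptidase, thioesterase and progranulin genes, 4 in number, each exceeded the control at day 21, with a median of 0.51. Grn encodes progranulin, a secreted glycoprotein that is cut into granulins in lysosomes and whose loss causes frontotemporal dementia or, when complete, a storage disorder. Its level was 0.75 in the control, 2.33 at day 21, 0.73 at day 35, 0.89 at day 45, 0.75 at day 55 and 0.76 at day 70. Day 21 lay 1.43 above the next highest array, and the other 5 lay within 0.17. In intensity units the signal was 2200 in the control and 6239 at day 21. The 2 Grn probes, at chr10:91541880-91541939 and chr10:91541839-91541898 of rn4, overlap and gave 1.58 and 1.52, so they are not independent measurements.

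Lipa, the acid lipase that frees cholesterol and fatty acids from lipoproteins, was at 0.30 in the control and 0.84 at day 21, and between 0.16 and 0.27 afterwards. Tpp1, a tripeptidyl peptidase, was at -0.18 and 0.28, and between -0.35 and -0.06 afterwards. Ppt1, a palmitoyl-protein thioesterase, was at 0.03 and 0.52, and between 0.09 and 0.29 afterwards. These were differences of 0.54, 0.46 and 0.49, each short of 1.5-fold. A brighter probe, printed 10 times, carries the name of a transcript that the naming rule did not match, and only the files' accession column ties it to Ppt1, so it did not stand for the gene. It had levels of 1.82 in the control and 1.91 at day 21, a difference of 0.09, with SDs between spots of 0.068 and 0.064 on these arrays. With this probe in place of the other, the median over the 28 genes at day 21 was 0.27 instead of 0.38.

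**Figure D3:**
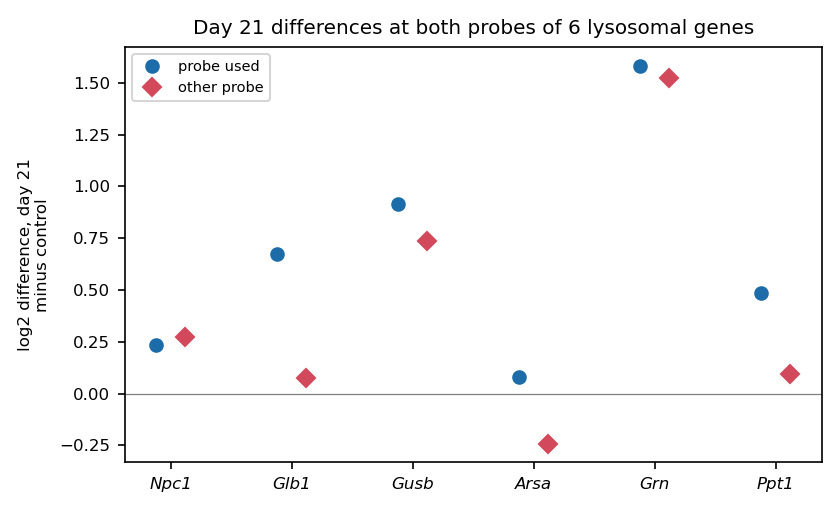
Log2 difference of day 21 from the control (y axis) at the probe used (circles) and at a further probe (diamonds) of the 6 lysosomal genes that have one (x axis; for Ppt1 the probe tied to it by the accession column alone); points are single probes on 1 pair of arrays. Both probes of Grn (1.58 and 1.52), Gusb (0.91 and 0.74) and Npc1 (0.24 and 0.27) lie close together, whereas those of Glb1 (0.67 and 0.07) and Ppt1 (0.49 and 0.09) do not. Those of Arsa (0.08 and -0.24) lie on opposite sides of the control.

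Day 21 gave the highest of the 6 levels for 16 of the 27 lysosomal genes well above background throughout, or 59.3%, beside 24.1% of 12520 genes. It gave the lowest for 4 of the 27, beside 31.6%. By its brighter probe, printed 10 times, Ppt1 would not be among the 16, at 1.909 at day 21 and 1.914 at day 70. For 12 of the 27 (44.4%) the day 21 level exceeded the highest other array by more than the other 5 arrays differed among themselves, beside 8.03% of the 12520 genes. These were Npc2, Grn, Gusb, Fuca1, Lamp2, Lipa, Arsb, Glb1, Man2b1, Manba, Tpp1 and Npc1. By its other, dimmer probe Glb1 would not be among them, at -3.98 at day 21 and from -4.421 to -4.055 on the other arrays. Hexa, although past 1.5-fold, was not among them, since its other arrays spread over 0.55.

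**Figure D4:**
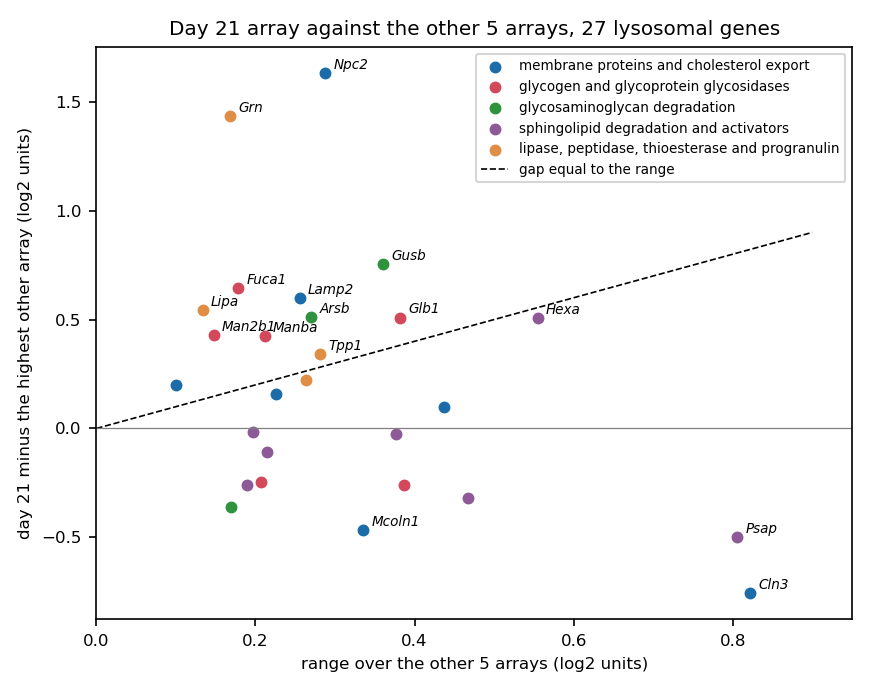
Day 21 level minus the highest level on the other 5 arrays (y axis, log2 units) against the range over those 5 arrays (x axis, log2 units) for the 27 lysosomal genes well above background on all 6 arrays, coloured by role; the dashed line marks a gap equal to the range. The 12 genes above the line include Npc2 (1.63) and Grn (1.43), and Cln3 (-0.76) and Psap (-0.50) lie lowest, with the widest ranges.

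At day 35 the same genes were near the control. Of the 28 genes compared, 0 were at least 1.5-fold higher, beside 1.53% of all genes, and 0 were lower, beside 4.24%. The median was -0.02 for the lysosomal genes, and between -0.08 and 0.05 under other ways of processing, and -0.04 for all genes. The largest differences were 0.36 for Psap and -0.32 for Gla. Compared directly with day 21, without the control array, 3 of 29 genes were at least 2-fold lower at day 35, beside 4.48% of all genes, and 10 were at least 1.5-fold lower, beside 9.08%. The 3 were Npc2 at -1.92, Grn at -1.60 and Gusb at -1.12. Galc, which has no control value, was lower by 0.82 on this comparison. The median was -0.31 for the lysosomal genes and 0.03 for all genes. These comparisons share the control or the day 21 array with the ones above and are not independent of them.

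The later days again lay near the control. Medians over the 28 genes were 0.06 at day 45, 0.01 at day 55 and 0.05 at day 70, against -0.06, -0.04 and -0.04 for all genes. None was at least 1.5-fold higher on these days, beside 1.18%, 1.72% and 1.39% of all genes. Galns, as a bound, was the single gene at least 1.5-fold lower at day 55 and day 70, beside 11.2% and 13.6% of all genes, and none was at day 45, beside 12.9%. At 2-fold, 0 of the 28 were lower at days 35, 45, 55 or 70, beside 1.12%, 5.83%, 4.99% and 6.86% of all genes. After Galns the lowest were Gla at -0.47 at day 45, Psap at -0.33 at day 55 and Psap at -0.45 at day 70.

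Within the slide of the later arrays, each day was set against the mean of the other 2. The 28 genes compared here include Galc and lack Galns, which was not well above background on these arrays. Psap was 0.59 higher at day 45, the single gene of 28 past 1.5-fold, beside 1.57% of all genes (2.82% were lower and none of the 28 was), and it was 0.39 lower at day 70. Cln3 was 0.50 higher at day 45 and 0.42 lower at day 70. Hexa was 0.37 higher at day 45 and 0.46 lower at day 55. No gene of the 28 was past 1.5-fold in either direction at day 55, beside 2.93% higher and 1.81% lower of all genes, or at day 70, beside 1.49% and 2.34%.

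Other lysosomal genes, grouped in lists by function, did not share one direction at day 21. Of the proton pump subunits 12 of 16 were below the control, beside 8544 of the 14153 genes, with a median of -0.21 beside -0.07. None was past 1.5-fold, beside 7.76% of all genes higher and 5.43% lower. The median of the subunits was between -0.23 and -0.19 under 11 other ways of processing. Receptors and enzymes of sorting and maturation, such as those of the mannose 6-phosphate tag, had a median of 0.00 over 9 genes. None of the 9 was past 1.5-fold, beside those same shares of all genes.

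Transcription factor and nutrient-sensing genes had a median of 0.04 over 10 genes. Tfec, a relative of TFEB in the macrophage lineage, did not clear the background in the control and was at least 21.1-fold higher at day 21. The main regulators of lysosomal genes in this family differed less, Tfeb by 0.54 and Mitf by 0.35. Tfe3 had no matched probe and was not analysed here.

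Further hydrolases had a median of 0.17 over 17 genes. Of these 14 lay above the control, beside 5609 of the 14153 genes, and 4 were at least 1.5-fold higher, beside 7.76%. Dnase2, the nuclease that degrades DNA of engulfed cells, was at 0.88 in the control, 2.37 at day 21, 0.99 at day 35, 1.08 at day 45, 0.88 at day 55 and 1.14 at day 70, a 2.82-fold difference at day 21. Naaa, an acid amidase, was higher by 0.83, and Lgmn, an asparaginyl endopeptidase, by 0.79. Siae, a sialic acid esterase, had differences of 0.04 and -0.18 at days 21 and 35, and of -0.54, -0.61 and -0.69 at days 45, 55 and 70.

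Further membrane proteins had a median of 0.01 over 22 genes, yet 3 of them exceeded every gene of the main list at day 21. Cd68, a lysosomal glycoprotein of phagocytes, was 15.2-fold higher, with levels of -2.86 in the control, 1.07 at day 21, -3.13 at day 35, -3.16 at day 45, -3.24 at day 55 and -3.43 at day 70. Gpnmb, a membrane glycoprotein induced in lipid-laden macrophages, was 12.1-fold higher, and Laptm5, a lysosomal protein of blood cells and microglia, was 3.69-fold higher. Cd63, a tetraspanin of late endosomes, was 1.86-fold higher. The Gpnmb difference was 0.26 at day 35 and 0.94 at day 45. Cln6, an endoplasmic reticulum protein that aids enzyme export, was below the control on each of the 5 arrays. Its differences were -0.51, -0.76, -0.64, -0.94 and -0.99 in order of time. The phagosomal metal transporter gene Slc11a1 had a level of -4.115 in the control. Its differences were -0.06 and -0.42 at days 21 and 35, and -0.49, -0.99 and -0.66 at days 45, 55 and 70. In the sorting list Gnptab, the transferase that makes the mannose 6-phosphate tag, had a dim probe. Its signal failed to clear background in the control, at day 21 and at day 45. Levels were -5.86 at day 35, -6.05 at day 55 and -5.15 at day 70. The day 70 value gave a bound of 2.32-fold over the control's floor of -6.363. This bound compares arrays of different slides and rests on a signal near the floor.

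Marker genes of other cell types differed on the same array. Of 13 microglial markers, 9 were at least 2-fold higher at day 21, beside 3.58% of all genes, with a median of 1.64. Their summed linear level was 79.0 there against 27.6 to 32.2 on the other 5 arrays. All 13 were well above background on every array. One gene is counted both among these markers and among the further hydrolases. Among the individual markers Trem2 was higher by 2.52 and P2ry12 by 1.17, whereas Cx3cr1 differed by 0.07 and Tmem119 by 0.24. The part of the microglial markers in the lysosomal differences was not tested.

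Of 7 markers of border and recruited macrophages, Mrc1 and Ccr2 were not well above background on any array. At day 21, 4 could be compared and 2 of them were at least 2-fold higher, beside 3.58% of all genes. The summed level was 24.6 against 4.74 to 6.45, or 7.19 against 3.08 to 4.08 without S100a4. Ms4a7 was well above background at day 35 alone, and S100a4 was higher by 3.23 at day 21. Markers of the meninges were at least 2-fold higher for 4 of 7, beside the same 3.58%. Their summed level was 8.35 against 2.51 to 2.88. Their part in the lysosomal differences was not tested either.

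Choroid plexus markers were at least 2-fold higher for 6 of 7 at day 21, beside 3.58% of all genes, with a median of 2.01. But they were also high at day 35 and day 70, with medians of 1.65 and 1.31. Their summed level was 51.6 at day 21, 26.4 at day 35 and 44.0 at day 70, and 3.02 to 3.13 on the remaining arrays. Most of that sum was Ttr, which was saturated at day 21, so that value is a lower bound. Without Ttr the sum was 0.957 at day 21, 0.517 at day 35 and 0.661 at day 70, and 0.189 to 0.307 on the remaining arrays. The lysosomal medians on the day 21, 35 and 70 arrays were 0.38, -0.02 and 0.05, and the part of the choroid plexus markers in them was not tested. Medians at day 21 were 0.25 for astrocyte markers, 0.29 for oligodendrocyte markers, -0.16 for neuronal markers and -0.31 for endothelial markers.

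**Figure D5:**
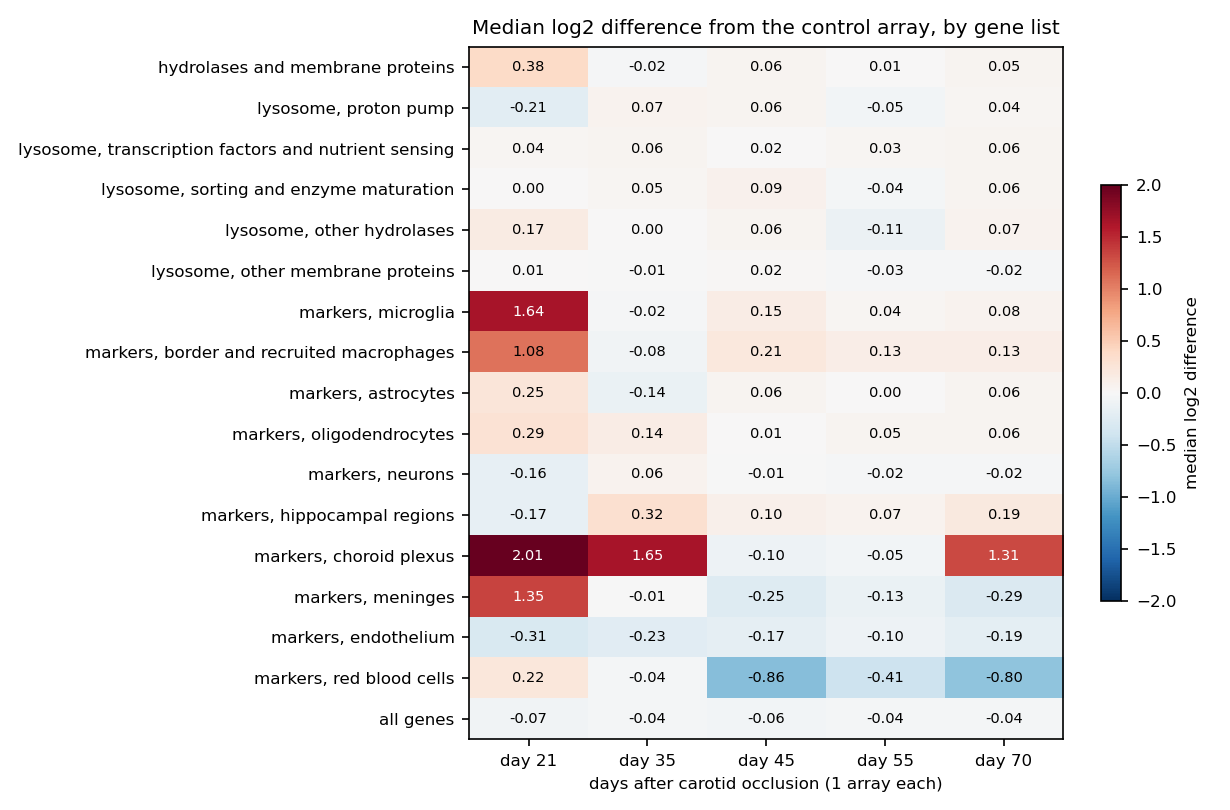
Median log2 difference from the control array for the lysosomal hydrolase and membrane protein genes, 5 further lysosomal lists, 10 marker lists and all genes (rows) at each time point (columns, 1 array each), given by colour and number. The lysosomal median is highest at day 21 (0.38), on the same array as microglial (1.64) and meningeal (1.35) markers, while choroid plexus markers are also high at day 35 (1.65) and day 70 (1.31).

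Many promoters of lysosomal genes carry an E-box-like element that TFEB and its relatives bind, built around the letters CACGTG. RefSeq promoter windows (assembly GRCr8, 250 bases before to 50 after the start of the gene) were matched for 26 of the 32 genes, and CACGTG, which reads the same on both strands, occurred in 8 of them, or 30.8%. It occurred in 6.65% of 27457 promoters of the same length and in 9.33% of 10181 promoters of genes well above background on all 6 arrays. The median GC content was 60.0%, 52.3% and 60.7%, respectively. The longer TCACGTG, counted on both strands and always overlapping the first motif, was in the same 8 promoters, beside 3.43% and 5.43%. The full CLEAR palindrome, the same core extended by 2 bases on either side, was in 1, that of Galc, beside 0.277% and 0.491%.

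The stretches around the motif are shown for genes that span the day 21 differences of those with the motif. They run from Glb1, 1.60-fold higher at the probe used (a difference of 0.07 at its other probe), through Lamp1 and Cln3 to Mcoln1, the lowest of the 28. Galc is added for its palindrome. The stretches are written 5′ to 3′ on the strand of the gene, with CACGTG in capitals. Lamp1 holds 5 copies in 2 stretches and Cln3 holds 2. Mcoln1 holds a further copy just after its start, which is not shown.
Lamp1, chr16:83075184-83075270 (minus strand): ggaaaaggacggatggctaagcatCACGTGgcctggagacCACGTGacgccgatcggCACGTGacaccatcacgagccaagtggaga
Lamp1, chr16:83075072-83075152 (minus strand): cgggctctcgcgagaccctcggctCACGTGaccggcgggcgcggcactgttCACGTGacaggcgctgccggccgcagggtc
Cln3, chr1:190597938-190598019 (minus strand): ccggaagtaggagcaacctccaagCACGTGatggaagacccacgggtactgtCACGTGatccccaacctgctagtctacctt
Glb1, chr8:122963594-122963647 (plus strand): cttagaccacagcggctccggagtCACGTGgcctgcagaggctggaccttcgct
Mcoln1, chr12:6358212-6358257 (plus strand): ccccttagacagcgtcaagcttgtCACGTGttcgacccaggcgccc
Galc, chr6:123245560-123245603 (minus strand): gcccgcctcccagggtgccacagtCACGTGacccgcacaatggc

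The other 3 promoters with the motif were those of Gaa, Idua and Sgsh. Of the 8 genes, 5 had a difference from the control at day 21, namely Lamp1, Cln3, Glb1, Mcoln1 and Gaa, with a median of -0.11. The 17 genes with a difference whose window lacked the motif, among them Npc2, had a median of 0.49. Glb1, among the 5, enters by the probe used, and its other probe gave 0.07. A single window was taken per gene. Arsa, Arsb, Asah1, Hexa, Ppt1 and Psap had no matched window and stand in neither set. A match of these letters is a description of the window, and binding was not measured.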

How the data were processed

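Per the file headers, the authors' scanner files come from Feature Extraction 10.7.3.1 and design 028282, with probe positions in rn4. The deposited intensity is the processed signal of the green channel, although the labels name Cy5. The authors also deposited a table on a linear intensity scale, used as an alternative, whose making the sources used here do not describe. Here the log2 signal was scaled to each array's 75th percentile over all non-control spots. The 346 to 470 spots per array marked as outliers were then left out. Spots of a probe were averaged, and the probe with the highest mean level stood for its gene.

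Of 30367 probes, 17328 were named by accession, 2632 by symbol, 717 by synonym, 417 by gene ID through RefSeq (GRCr8) and 187 by the file, and 9086 stayed unnamed, among them a brighter Ppt1 probe known by an Ensembl transcript name. Npc1 was matched through the synonym Cdig2 and Sgsh through its gene ID. A gene was compared where either array was well above background; a dim array was replaced by its lowest level well above background, or the probe's own if higher, which gives a bound. Genes were counted at 2-fold and 1.5-fold. The scripts were tested on simulated data. With 1 array per group no p-value or standard error can be given, and precision is limited by how few arrays there are.

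The genes and lists were chosen with earlier results of these data known. The text names every gene of the main list, genes of the other lysosomal lists at least 2-fold from the control at day 21 or 35, up to the 3 largest per list later, and further probes over 0.5 log2 units away from the first. Genes and probes named beyond that rule were chosen after their values were seen. R 4.3.3 with limma 3.58.1 and pandas 2.3.3 were used. One gene of the further lists is counted in them but not reported here. Alternatives covered background correction, scaling, probe choice, filters and baseline.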

Additional observations from a re-analysis of the deposited data

How the results depend on the processing

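At day 21 the median of the lysosomal genes lay between 0.27 and 0.40 under 11 alternatives, with 2 to 3 genes at least 2-fold higher and 7 to 10 at least 1.5-fold higher. The 10 genes past 1.5-fold were picked by that same difference, and their single values were recomputed by a choice made after seeing the data. Of these, 109 of 109 values lay above their baseline, the control or the mean of the other 5 arrays, and 101 were past 1.5-fold. Several alternatives leave a gene's value unchanged, and all use the same arrays, so this tally is no independent support. The difference was 0.37 for Glb1 with the mean of its probes, 0.50 for Manba against the mean of the other 5 arrays, and between 0.39 and 1.25 for Galns.

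Of 301 counts and medians, 36 moved, a count by over 1.5 times or a median by at least the technical SD of 0.078, and smaller shifts were not counted. A naming of probes by the files' accession column too, added after seeing the data, gave a median of 0.266 at day 21, since it swaps the Ppt1 probe. The median at day 21 was 0.30 both with marked outlier spots kept and with genes well above background on all 6 arrays. With marked outlier spots kept, Galc was counted, so that 1 gene was at least 2-fold lower on each of the 5 days, and 1 gene at least 1.5-fold lower at days 21, 35 and 45 and 2 at days 55 and 70. The count at least 1.5-fold lower at days 55 and 70, the bound of Galns, was 0 with normexp correction, quantile normalization, the authors' deposited values, either filter on background, and the mean of the other late days as baseline. The count at least 1.5-fold higher at day 45 was 1 with scaling to the median, quantile normalization, the authors' deposited values, and the mean of the other 5 arrays or of the other late days as baseline. Medians at days 45, 55 and 70 were 0.178, 0.0886 and 0.145 with scaling to the median, which moved the median of all genes at day 45 from -0.06 to 0.06, and -0.0368, -0.0742 and -0.0716 against the mean of the other 5 arrays. The sign of the medians at days 45, 55 and 70 thus depends on the baseline, and that at day 35 ran from -0.08 to 0.05 over the alternatives. The cause of the other moves was not tested.

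Over all genes at day 21, 507 were at least 2-fold higher and 267 lower, against 241 and 29 with normexp correction, 375 and 118 with the authors' deposited values, and 691 and 15 against the mean of the other 5 arrays. No paired analysis was possible because each group has 1 array. Dim probes such as those of Galns and Sgsh are limited by signal over background.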
